A study of Mus musculus with 8 samples.

Results

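The genes described here make cholesterol and fatty acids. They are 20 genes of the sterol branch, 12 of the fatty acid branch and 3 regulators of both branches, 35 in all of the 39179 genes in the count tables. The members were taken by gene symbol from a list of 36 names, in which Msmo1 also stands under its older symbol Sc4mol, the one the tables use. All 35 members passed the filter on low counts that left 16192 genes for testing.

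RNA was sequenced from mouse pancreatic ductal adenocarcinoma cells of the iKPC model, in 4 cell lines that each gave 1 library with overexpressed WT-USP21 and 1 with overexpressed ED-USP21. USP21 is a deubiquitinating enzyme, and the labels do not spell out ED. The alleles that all 8 libraries share include ROSA_rtTA, a doxycycline-dependent transcriptional activator, and p48-Cre, a Cre recombinase expressed from the promoter of a pancreatic transcription factor. The background label is FVB/C57Bl6 for lines 1 and 2 and C57BL/6 for lines 3 and 4. There was no library without a construct, and whether doxycycline was present is not given in the sources. Each line is 1 culture per construct, so a difference within a line has no replicate of its own.

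Cells make cholesterol and fatty acids from acetyl-CoA. In the sterol branch the acetyl units pass through mevalonate and isoprenoid phosphates to squalene, which is closed into lanosterol and trimmed to cholesterol. In the fatty acid branch they are carboxylated to malonyl-CoA, joined to palmitate, and then elongated and desaturated. Both branches are known targets of the SREBP transcription factors, the products of Srebf2 and Srebf1, which Scap escorts out of the endoplasmic reticulum when sterols are low and Insig proteins hold back when sterols are plentiful.

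Each library held 72828184 to 107551210 reads in genes, and 11.4% to 20.6% of all counted reads lay in no gene. Usp21 was at 147 to 944 CPM (read counts scaled to a common library total) in WT-USP21 libraries and at 1658 to 3133 CPM in ED-USP21 libraries, higher with ED-USP21 in 4 of 4 lines. The lowest WT-USP21 level, 147 CPM, was that of line 1, and lines 2 to 4 were at 539 to 944 CPM. The ductal keratins and Cdh1 were abundant, with Krt19 at 961 to 2588 CPM in WT-USP21 libraries and 1455 to 1938.6 CPM in ED-USP21 libraries. Epcam, another epithelial marker, reached 5.35 CPM in the WT-USP21 library of line 1 and 3.40 CPM in its ED-USP21 library, and was at most 0.314 and 0.189 CPM in the WT-USP21 and ED-USP21 libraries of lines 2 to 4. Of the 4 adipocyte markers, Plin1 and Lep were at 0 in every library, Adipoq had at most 1 read, and Cidec reached 17.8 CPM in the WT-USP21 library of line 1. Of the 4 hepatocyte markers, Cyp7a1 was at 0 in every library, Alb had at most 2 reads and Ttr at most 6, and Apoa1 was at 0.0929 to 0.283 CPM in WT-USP21 libraries and 0.212 to 0.484 CPM in ED-USP21 libraries. Line 1 stood apart, and lines 2 and 4 were the most alike: the median chi-square per gene between their libraries was 3.55 with WT-USP21 and 2.81 with ED-USP21, against 7.13 to 42.9 for the other pairs of lines of a construct. Sampling noise alone would give a median below 1, so these were kept as separate lines. The most alike lines, 2 and 4, carry different background labels.

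Sterol genes were higher with WT-USP21 than with ED-USP21 in lines 1 and 2 and mostly lower with it in lines 3 and 4. The difference of log2 CPM, WT-USP21 minus ED-USP21, was positive for 20 of 20 sterol members in line 1 and for 19 of 20 in line 2. It was positive for 3 of 20 in line 3 and 2 of 20 in line 4. The share of all tested genes with a positive difference was 51.4%, 50.6%, 46.5% and 50.7% in lines 1 to 4. The sterol members had medians of 0.32, 0.23, -0.11 and -0.29 in lines 1 to 4. The median over all genes tested lay between -0.02 and 0.01 in each line. In bulk RNA, fewer cells with a transcript and less of it per cell cannot be told apart.

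**Figure D1:**
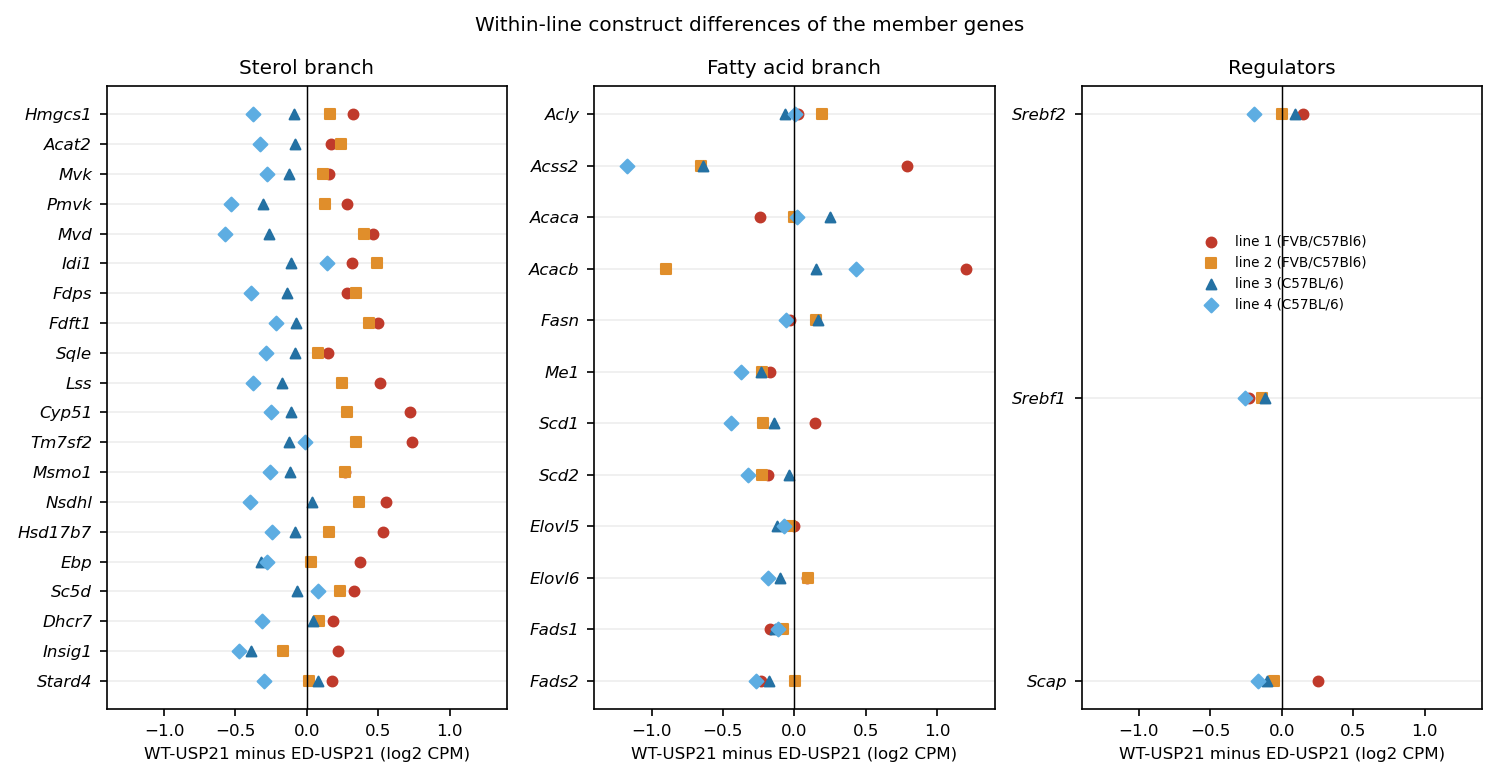
Difference of log2 CPM, WT-USP21 minus ED-USP21, on the horizontal axis for each member gene (rows) in each line (coloured points), by branch; each point is a single difference between 2 libraries. The points of lines 1 and 2 lie right of 0 for nearly all sterol members and those of lines 3 and 4 mostly left of it, while Acss2 lies at 0.79 in line 1 and at -0.64 to -1.17 in the other lines and Acacb, with 7 to 29 reads a library, is scattered.

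Both values of lines 1 and 2 lay above both values of lines 3 and 4 for 19 of 20 sterol members, against 17.7% of all genes tested. The exception was Stard4, a sterol carrier, at 0.17, 0.02, 0.08 and -0.30 in lines 1 to 4. Differences were positive in lines 1 and 2 and negative in lines 3 and 4 for 14 of 20 sterol members, against 5.25% of all genes. Leaving out lines 1 to 4 in turn gave 19, 20, 20 and 19 members ordered by label, where 34.4%, 37.7%, 31.6% and 32.6% of all genes were so ordered. A member ordered with every line present must stay ordered when a line is left out. Only Stard4 could change, so these counts add no separate support. These genes are known to share regulators, so the count does not stand for 20 separate observations.

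The enzymes that lead to squalene carried the order by label in every case. Hmgcs1, which condenses acetyl units ahead of mevalonate, was at 394, 271, 486 and 249 CPM in WT-USP21 lines 1 to 4 and at 315, 242, 517 and 323 CPM in ED-USP21 lines 1 to 4. Mvd, the decarboxylase that ends the mevalonate steps, was at 82.5, 30.5, 43.9 and 23.4 CPM in WT-USP21 lines and at 59.9, 23.2, 52.7 and 34.8 CPM in ED-USP21 lines. For both genes the WT-USP21 library was the higher of its line in lines 1 and 2 and the lower in lines 3 and 4, and over all 8 libraries the constructs overlapped. Pmvk, the kinase just before Mvd, was at 94.3, 42.2, 58.4 and 34.96 CPM in WT-USP21 lines and at 77.6, 38.7, 72.2 and 50.6 CPM in ED-USP21 lines, with the same order.

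Idi1, which interconverts the 2 isoprenoid building blocks, departed from this sign pattern. It was at 42.7, 17.1, 27.0 and 15.7 CPM in WT-USP21 lines 1 to 4 and at 34.3, 12.2, 29.1 and 14.3 CPM in ED-USP21 lines 1 to 4, so its WT-USP21 library was the higher in lines 1, 2 and 4. Fdft1, squalene synthase, was at 142, 77.8, 113 and 65.4 CPM in WT-USP21 lines and at 100.5, 57.5, 119 and 75.8 CPM in ED-USP21 lines. Its differences were 0.49 and 0.43 in lines 1 and 2 and -0.08 and -0.21 in lines 3 and 4.

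The enzymes after squalene followed the same order by label. Lss, which closes squalene epoxide into lanosterol, was at 261, 123, 202 and 108 CPM in WT-USP21 lines 1 to 4 and at 183, 104, 228 and 141 CPM in ED-USP21 lines 1 to 4. Cyp51, the lanosterol demethylase, was at 529, 164, 272 and 158 CPM in WT-USP21 lines and at 322, 135, 293 and 188 CPM in ED-USP21 lines. The WT-USP21 library of line 1 held the highest level of both Lss and Cyp51, and for Cyp51 no other library came above 322 CPM. Tm7sf2, a sterol reductase, was at 37.5, 20.5, 22.4 and 19.3 CPM in WT-USP21 lines and at 22.5, 16.2, 24.4 and 19.5 CPM in ED-USP21 lines.

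Nsdhl, which takes part in removing the methyl groups of lanosterol, was at 65.6, 26.4, 46.6 and 21.96 CPM in WT-USP21 lines 1 to 4 and at 44.7, 20.6, 45.5 and 28.9 CPM in ED-USP21 lines 1 to 4. Its WT-USP21 library was the higher in lines 1 to 3, by a difference of 0.04 in line 3. Sc5d, a sterol desaturase near the end of the pathway, was at 102, 72.9, 103 and 74.7 CPM in WT-USP21 lines and at 81.4, 62.1, 108 and 70.6 CPM in ED-USP21 lines. Its WT-USP21 library was the lower in line 3 alone. The other sterol members (Acat2, Mvk, Fdps, Sqle, Msmo1, Hsd17b7, Ebp, Dhcr7 and Stard4) had differences of 0.02 to 0.54 in lines 1 and 2 and of -0.39 to 0.08 in lines 3 and 4.

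Insig1, the sterol-regulated protein that holds the SREBP complex in the endoplasmic reticulum, differed from the enzymes in its levels. It was at 278, 382, 627 and 347 CPM in WT-USP21 lines 1 to 4 and at 239, 429, 824 and 484 CPM in ED-USP21 lines 1 to 4. Line 1 held its lowest levels, whereas for 15 of 20 sterol members the WT-USP21 library of line 1 held the highest level of all 8 libraries. Insig1 was the 1 sterol member whose WT-USP21 library was lower in line 2, by -0.17.

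**Figure D2:**
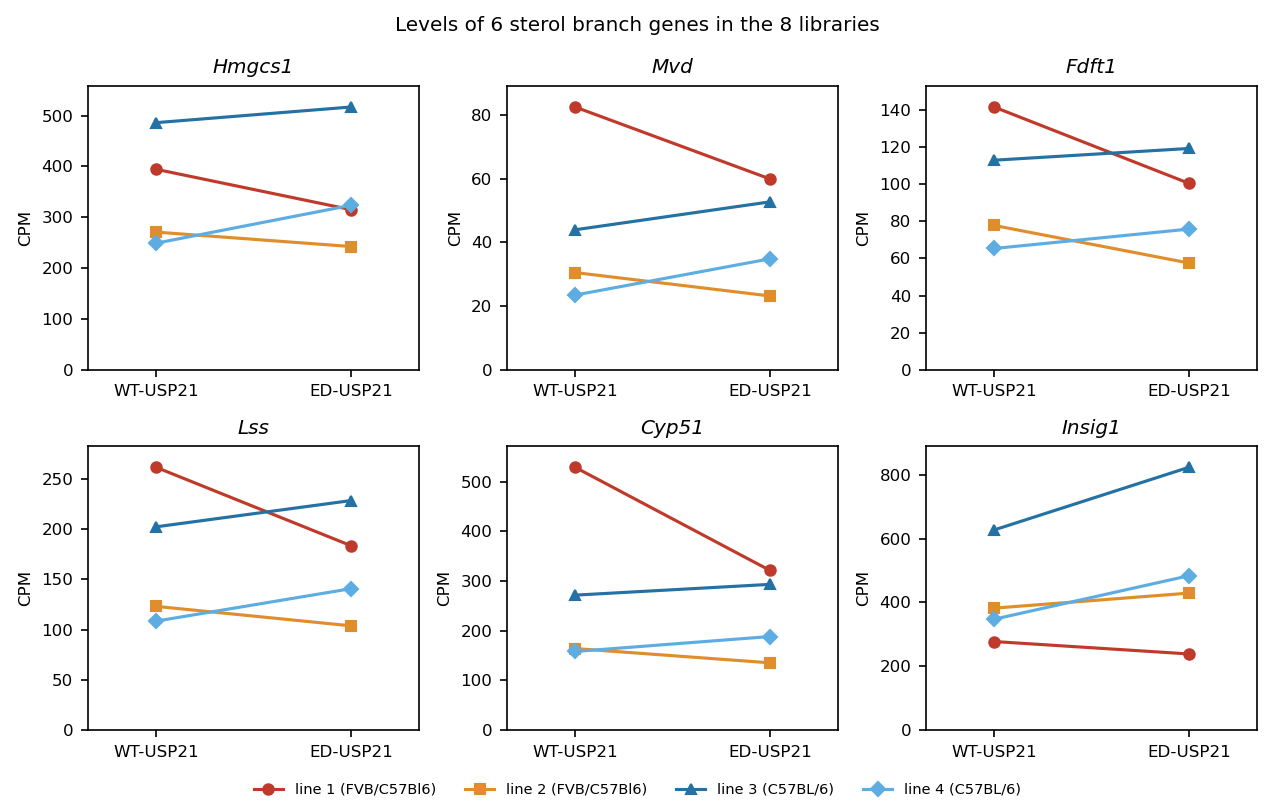
Level in CPM (vertical axis, linear, from 0) of 6 sterol branch genes in the WT-USP21 library (left) and the ED-USP21 library (right) of each line, joined by a line per cell line. Lines 1 and 2 slope down towards ED-USP21 in every panel but that of Insig1, where line 2 slopes up with lines 3 and 4.

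Summed over the 20 sterol members, the level was 3653, 2148, 3373 and 1935 CPM in WT-USP21 lines 1 to 4 and 2849, 1949.5, 3785 and 2446 CPM in ED-USP21 lines 1 to 4. The span between lines within a construct was thus larger than any difference between the constructs of a line. Counting error does not limit these values: each sterol member had 900 to 76627 reads per library, and the counting standard error of a log2 difference was at most 0.06.

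The promoters of 4 members are shown because the data turn on these genes. Hmgcs1 is an early enzyme of the sterol branch, and Acss2 is the called fatty acid gene. Mvd and Cyp51 were the sterol genes with the largest dependence on the background label. Each window runs from upstream of the transcription start to just past it, read 5′ to 3′ on the gene's strand, from RefSeq on build GRCm38.p6. Capitals mark matches, on either strand, to the sterol regulatory element in the form TCACNCCAC and to the CCAAT box, which do not overlap here. The windows are chr13:119690101-119690400 (plus strand) for Hmgcs1, chr8:122443373-122443672 (minus strand) for Mvd, chr5:4104648-4104947 (minus strand) for Cyp51 and chr2:155517793-155518092 (plus strand) for Acss2.
Hmgcs1: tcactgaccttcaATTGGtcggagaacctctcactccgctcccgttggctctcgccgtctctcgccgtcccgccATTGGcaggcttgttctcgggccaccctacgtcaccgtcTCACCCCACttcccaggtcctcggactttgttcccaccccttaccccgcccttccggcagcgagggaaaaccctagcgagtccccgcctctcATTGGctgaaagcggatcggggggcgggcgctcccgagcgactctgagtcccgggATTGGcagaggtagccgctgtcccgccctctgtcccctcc
Mvd: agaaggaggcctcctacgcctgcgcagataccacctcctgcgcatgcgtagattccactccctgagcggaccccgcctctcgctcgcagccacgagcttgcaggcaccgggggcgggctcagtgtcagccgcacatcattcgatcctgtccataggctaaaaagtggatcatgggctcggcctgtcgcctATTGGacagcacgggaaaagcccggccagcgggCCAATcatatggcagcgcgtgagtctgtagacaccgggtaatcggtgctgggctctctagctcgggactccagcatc
Cyp51: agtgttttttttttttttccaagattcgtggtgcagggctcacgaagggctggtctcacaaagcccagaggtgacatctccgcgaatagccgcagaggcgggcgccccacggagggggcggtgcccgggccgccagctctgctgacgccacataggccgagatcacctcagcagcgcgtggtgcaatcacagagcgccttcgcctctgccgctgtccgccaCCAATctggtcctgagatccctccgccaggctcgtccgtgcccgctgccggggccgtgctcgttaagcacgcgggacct
Acss2: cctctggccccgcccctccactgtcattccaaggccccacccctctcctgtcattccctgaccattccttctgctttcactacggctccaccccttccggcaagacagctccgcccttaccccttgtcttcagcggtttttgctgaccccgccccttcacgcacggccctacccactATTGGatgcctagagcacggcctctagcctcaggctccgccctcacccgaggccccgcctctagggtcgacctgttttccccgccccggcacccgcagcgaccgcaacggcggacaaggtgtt

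Of the 4 windows, that of Hmgcs1 alone held a match to TCACNCCAC, 1 match beside 4 CCAAT boxes. Other forms of the sterol regulatory element were not searched for, so a window without this match may still hold one. The Mvd window held 2 CCAAT boxes, and the Cyp51 and Acss2 windows 1 each. RefSeq windows were found for 28 of the 35 members, 19 windows for 16 sterol genes and 10 windows for 9 fatty acid genes. CCAAT was in 78.9% of the sterol windows and 60% of the fatty acid windows, and in 37.4% of all 32851 windows of the same length. The GC box GGGCGG was in 84.2% of sterol and 40% of fatty acid windows, against 35.7% of all. The element TCACNCCAC was in 5.26% of sterol windows, the Hmgcs1 window, in 0% of fatty acid windows and in 1.24% of all, and the E-box CACGTG in 21.1%, 10% and 7.15%. A match is a run of letters and shows no binding.

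The dependence on the background label was tested in edgeR as the construct difference in lines 1 and 2 minus that in lines 3 and 4, with the cell line as a block. The value was above 0 for 20 of 20 sterol members, with a median of 0.49, against -0.0028 over all genes tested. An unadjusted p under 0.05 was reached by 15 of 20 sterol members, all with a positive value, where 1.25% of all genes reached it in that direction. No gene passed after adjustment: 0 of 16192 genes, 0% of those tested, were called at an adjusted p under 0.05, and every sterol member had an adjusted p of 0.990 in edgeR. DESeq2 called 7 genes (0.0432%), none of them a member.

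Mvd had the largest of these values among sterol members, 0.85 (SE 0.15, 95% interval 0.46 to 1.24, unadjusted p = 0.0024, adjusted p = 0.990 in edgeR). It was followed by Cyp51 at 0.68 (SE 0.19, 0.21 to 1.15), Lss at 0.65 (SE 0.15, 0.26 to 1.05), Nsdhl at 0.64 (SE 0.19, 0.15 to 1.13), Pmvk at 0.62 (SE 0.14, 0.26 to 0.99) and Fdft1 and Tm7sf2 at 0.61 each. The 5 sterol members that missed the unadjusted threshold were Idi1, Sqle, Sc5d, Dhcr7 and Stard4, at 0.20 to 0.39. Hmgcs1, Mvd and Lss were singled out after their values were seen.

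**Figure D3:**
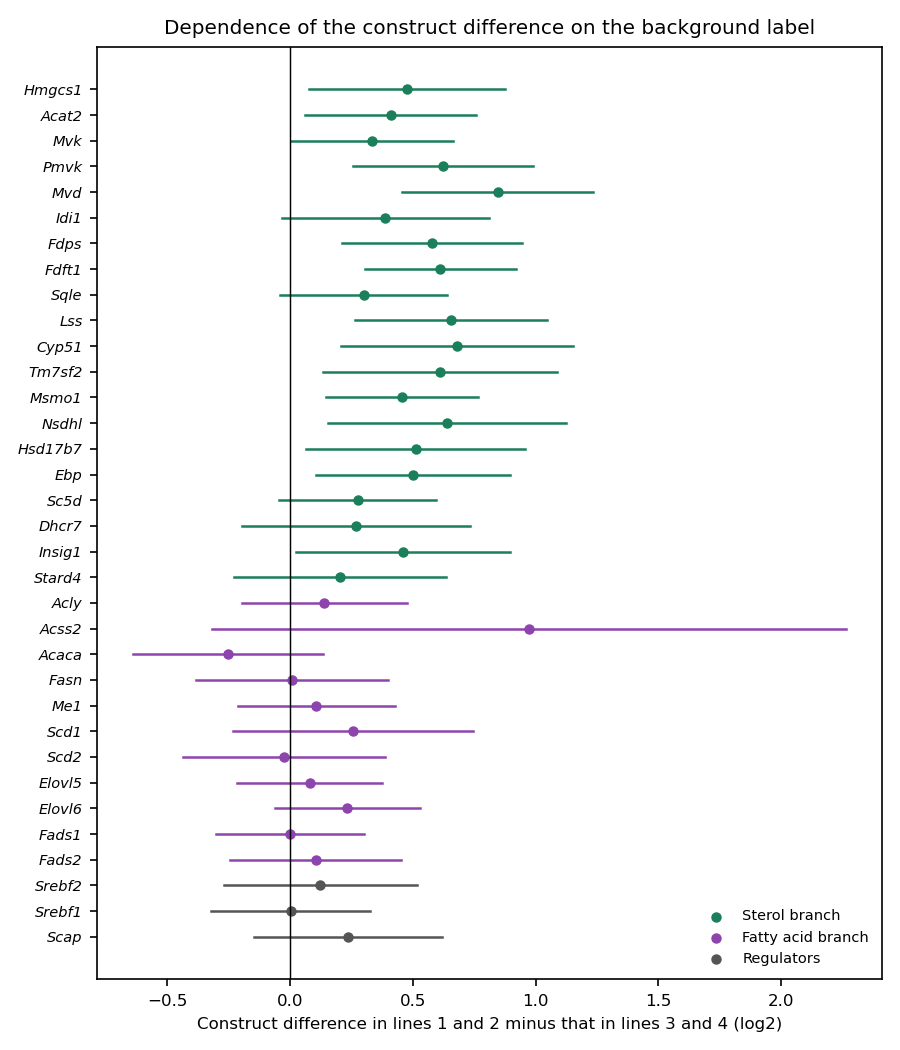
Construct difference (WT-USP21 minus ED-USP21) in lines 1 and 2 minus that in lines 3 and 4, in log2 units, for 34 members with its 95% interval; Acacb, with too few reads for the scale, is not drawn. All sterol points (green) lie right of 0, from 0.20 to 0.85, and fatty acid points (purple) lie on both sides, with Acss2 at 0.97 and a wide interval.

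The direction held for 20 of 20 sterol members without any 1 line. For the members ordered by label in all lines, this sign follows from that order. The number at an unadjusted p under 0.05 was 11 without line 1, 13 without line 2, 9 without line 3 and 2 without line 4, and it was 0 without the cell line block. The share of all genes at that threshold, in either direction, was 1.73%, 17.6%, 1.2% and 1.17% without lines 1 to 4 and 0.333% without the block, so the 13 came from a fit in which many more genes passed. With 2 lines a label, and lines 2 and 4 alike across the labels, the label and the individual lines cannot be told apart. The share of reads in no gene was 13.2%, 16.4%, 17.8% and 17.5% in WT-USP21 lines 1 to 4. It was 11.4%, 20.6%, 13.2% and 19.9% in ED-USP21 lines 1 to 4. Mitochondrially encoded genes held 1.33%, 1.65%, 1.48% and 2.04% of gene reads in WT-USP21 lines. They held 1.41%, 1.96%, 1.05% and 1.87% in ED-USP21 lines. This share was lower with WT-USP21 in lines 1 and 2 and higher in lines 3 and 4, the reverse of the sterol order. The part of either share in the sterol values was not tested.

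Fatty acid genes had medians smaller in size than those of sterol genes in lines 1, 2 and 4, and fewer members ordered by label. In line 3 the median was -0.11 for both branches. Both values of lines 1 and 2 lay above both of lines 3 and 4 for 4 of 12 members (Acly, Elovl6, Me1 and Elovl5), against 17.7% of all genes, and Elovl6 alone was positive in lines 1 and 2 and negative in lines 3 and 4. The difference between the branches was not tested. Their medians were -0.02, -0.06, -0.11 and -0.15 in lines 1 to 4, with 5, 4, 3 and 3 of 12 members positive. In the test by background label, 0 of 12 fatty acid members had an unadjusted p under 0.05 and their median was 0.09. In each line their summed level was the lower with WT-USP21, at 5681, 4428, 5872 and 4235 CPM in WT-USP21 lines 1 to 4, against 5996, 4748, 6035 and 5005 CPM in ED-USP21 lines 1 to 4. Scd2 alone made up 1819 to 2599 CPM of that sum over the 8 libraries. Without Scd2 the sums in lines 1 and 2 were nearly level between the constructs, so the direction in those lines rests on that gene.

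Me1, the malic enzyme that supplies NADPH for lipid synthesis, was the member with the smallest p within lines. It was at 260, 268, 316 and 253 CPM in WT-USP21 lines 1 to 4 and at 292, 313, 373 and 328 CPM in ED-USP21 lines 1 to 4. The WT-USP21 library was the lower in 4 of 4 lines, although the constructs overlapped across lines. The difference was -0.25 (SE 0.06, 95% interval -0.40 to -0.11) with an adjusted p of 0.313 in edgeR's quasi-likelihood test with the cell line as a block. In that test 4 of 16192 genes, 0.0247%, were called, and no member was among them, while 1341 genes (8.28%) had an unadjusted p under 0.05. DESeq2 with the same block called 406 genes, 0.562% of all genes as lower with WT-USP21, and Me1 was the 1 member called, at an adjusted p of 0.0134.

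The desaturases were close behind. Scd2, a stearoyl-CoA desaturase, was at 2277, 1877, 2531 and 1819 CPM in WT-USP21 lines 1 to 4 and at 2586, 2200, 2599 and 2282 CPM in ED-USP21 lines 1 to 4, lower with WT-USP21 in each line. Its difference was -0.19 (SE 0.07), with an adjusted p of 0.537 in edgeR. Fads1, a desaturase of polyunsaturated fatty acids, was at 245, 210, 264 and 202 CPM in WT-USP21 lines and at 276, 222, 290 and 219 CPM in ED-USP21 lines, also lower with WT-USP21 in each, by -0.13 (SE 0.05, adjusted p = 0.613 in edgeR).

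Fads2, its partner desaturase, was at 95.4, 109.6, 124 and 99.1 CPM in WT-USP21 lines 1 to 4 and at 112, 109.4, 141 and 119 CPM in ED-USP21 lines 1 to 4, level between constructs in line 2 and lower with WT-USP21 in the others. Scd1, the close relative of Scd2, was at 815, 369, 599.8 and 349 CPM in WT-USP21 lines and at 736, 429, 661 and 475 CPM in ED-USP21 lines. Line 1 was the 1 line in which Scd1 was higher with WT-USP21. By sign alone, Me1, Scd2, Elovl5 and Fads1 were lower with WT-USP21 in each line, 4 of 12 members, where 7.73% of all genes were so. Elovl5 counts among them by a negligible difference, since it was at 248.3 CPM in both libraries of line 1. Reads that fit both Scd1 and Scd2 could be split uncertainly by the counting.

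Acss2, which makes acetyl-CoA from acetate, set line 1 apart from the rest. It was at 41.1, 14.2, 18.7 and 11.1 CPM in WT-USP21 lines 1 to 4 and at 23.8, 22.3, 29.1 and 25.1 CPM in ED-USP21 lines 1 to 4. Its level in WT-USP21 cells was the highest of all libraries in line 1 and below all 4 ED-USP21 libraries in lines 2 to 4, and its ED-USP21 levels were close together. The differences were 0.79 in line 1 and -0.66, -0.64 and -1.17 in lines 2 to 4.

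The construct difference of Acss2 in line 1 minus that in lines 2 to 4 was 1.61 (SE 0.23, 95% interval 1.05 to 2.16, adjusted p = 0.0192 in edgeR). In this test 1015 genes, 6.27%, were called, 3.19% as higher, and Acss2 was the only member called. The comparison itself was chosen with line 1's departure already known. Line 1 is a single line, so the test takes its spread from lines 2 to 4 and assumes that line 1 varies like them. Without the cell line block the adjusted p of Acss2 was 0.0705 in edgeR, and without line 2, which leaves no called gene at all, it was 0.0718 at a value of 1.69. With line 1 left out, the difference of Acss2 within lines was -0.81 (SE 0.12, adjusted p = 0.0201 in edgeR), in a test that called 746 genes or 4.57%. With all 4 lines it was -0.43 (SE 0.31, adjusted p = 0.806 in edgeR).

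**Figure D4:**
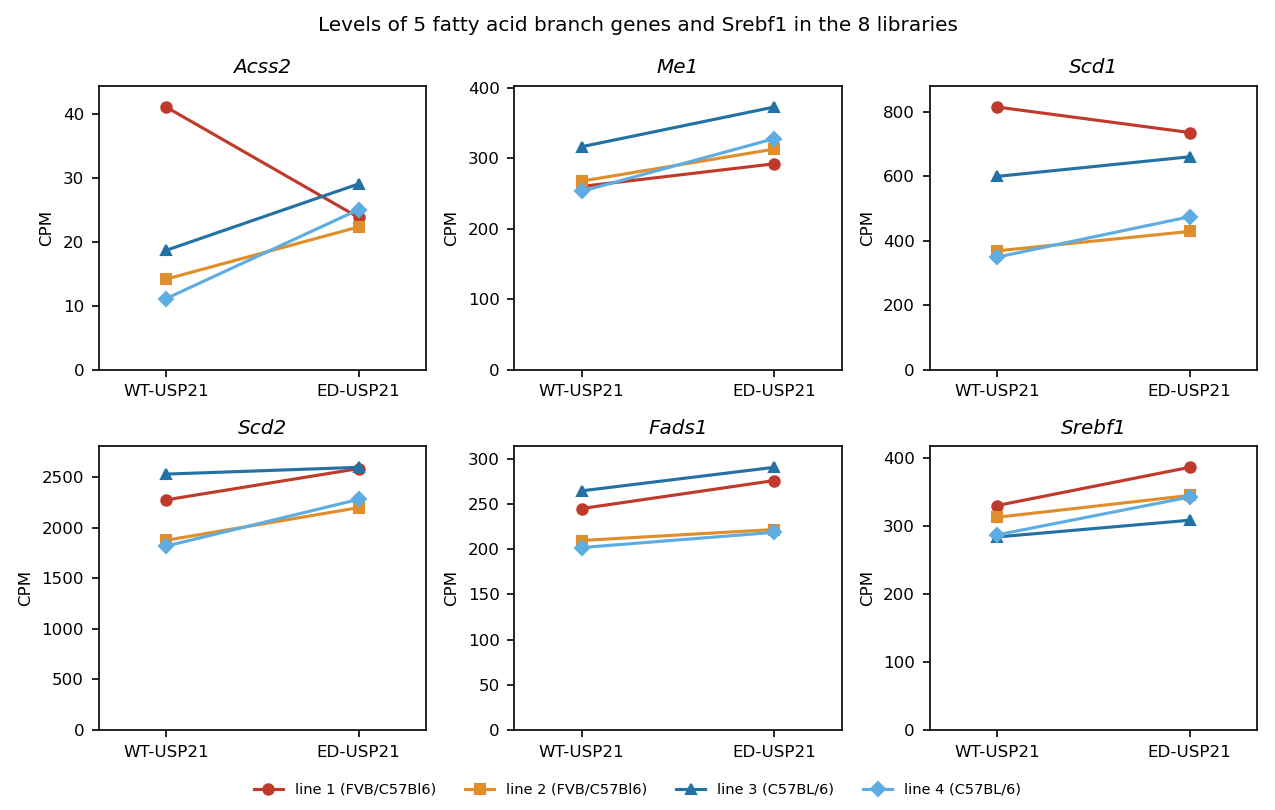
Level in CPM (vertical axis, linear, from 0) of 5 fatty acid branch genes and Srebf1 in the WT-USP21 library (left) and the ED-USP21 library (right) of each line, joined by a line per cell line. Acss2 slopes down towards ED-USP21 in line 1 and up in the other lines, while Me1, Scd2, Fads1 and Srebf1 slope up in all 4.

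No sterol member was called in the comparison of line 1 with lines 2 to 4, though all 20 values were positive, with a median of 0.44. The smallest adjusted p values were 0.0848 for Insig1 at 0.56 (SE 0.15) and 0.0959 for Cyp51 at 0.75 (SE 0.21) in edgeR. DESeq2 called Cyp51, Ebp and Insig1 beside Acss2, where it called 5.19% of all genes as higher. Without the filter on low counts edgeR called Cyp51, Hsd17b7, Insig1 and Tm7sf2 beside it, where 3.34% of all genes were called as higher. Cell cycle genes moved with line 1 too: 15 of 15 listed genes had negative differences in line 1, with a median of -0.81, 13 of 15 were called as lower there than in lines 2 to 4 (edgeR, 3.08% of all genes), and the medians in lines 2 to 4 were -0.03, 0.02 and -0.03. Ductal markers did so in part. Their medians were 0.47 in line 1 and -0.23, -0.17 and -0.25 in lines 2 to 4. Krt18 was at 0.12, 0.20, -0.18 and 0.12 in lines 1 to 4, and Epcam at 0.65, -0.39, 1.48 and 1.42. In line 1, 6 of 6 markers had positive differences. Of these, Krt7 at 0.63 (adjusted p = 0.0378), Krt19 at 1.004 (0.0337) and Cdh1 at 1.22 (0.0307) were called in edgeR. The low Usp21 level of the WT-USP21 library, 147 CPM beside 1658 CPM in the ED-USP21 library, also belongs to line 1. The part of any of these in the line 1 values was not tested.

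The remaining fatty acid members were called in no comparison. Acly, which splits citrate to acetyl-CoA, was at 372 to 534 CPM in WT-USP21 libraries and 351 to 524 CPM in ED-USP21 libraries. Fasn, fatty acid synthase, was at 693 to 997 CPM in WT-USP21 libraries and 662 to 890.1 CPM in ED-USP21 libraries, and its difference within lines was 0.06 (95% interval -0.11 to 0.22). Acaca, the acetyl-CoA carboxylase of lipid synthesis, had a difference of 0.00 (95% interval -0.21 to 0.21), with 0.25 in line 3 and -0.24 in line 1. Elovl5 and Elovl6, elongases, had values of -0.06 (95% interval -0.19 to 0.08) and -0.03 (95% interval -0.20 to 0.15). Acacb, the carboxylase isoform of mitochondria, had only 7 to 29 reads per library.

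Of the regulators, Srebf1 had its lower level with WT-USP21 in each line. It was at 330, 312, 284 and 287 CPM in WT-USP21 lines 1 to 4 and at 386, 345, 308 and 342 CPM in ED-USP21 lines 1 to 4, a difference of -0.19 (SE 0.06, adjusted p = 0.447 in edgeR). Srebf2, whose product favours sterol genes, was at 428, 282, 369 and 271 CPM in WT-USP21 lines and at 387, 282, 347 and 309 CPM in ED-USP21 lines. Its differences were 0.15, -0.00, 0.09 and -0.19 in lines 1 to 4, and line 3 lay above line 2. Scap was at 71.0, 61.7, 54.6 and 58.2 CPM in WT-USP21 lines and at 59.5, 64.0, 58.7 and 65.2 CPM in ED-USP21 lines, higher with WT-USP21 in line 1 alone. The tests by background label gave 0.12 (SE 0.15) for Srebf2, 0.00 (SE 0.13) for Srebf1 and 0.23 (SE 0.15) for Scap.

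Over all 4 lines together, the sterol branch averaged out. Its median mean difference was 0.02, against -0.09 for the fatty acid branch, and the values with the smallest p within lines were 0.21 for Idi1 (SE 0.11, adjusted p = 0.696 in edgeR), 0.14 for Sc5d (SE 0.08, 0.723), -0.21 for Insig1 (SE 0.12, 0.741) and 0.24 for Tm7sf2 (SE 0.15, 0.766). Without the cell line as a block, 0 of 16192 genes, 0%, passed in edgeR. DESeq2 called 60 (0.371%) and limma 3, and no member was among them. The unadjusted p in edgeR was under 0.05 for 392 genes (2.42%). Without line 1, Insig1 was at -0.34 (SE 0.07, adjusted p = 0.0594 in edgeR) and Me1 at -0.27 (SE 0.06, adjusted p = 0.0599 in edgeR).

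Per length, as mean CPM per kilobase of exon over the 8 libraries, Scd2 was the most abundant member at 415.7, followed by Insig1 at 145.9, Scd1 at 113.3 and Fdps, farnesyl diphosphate synthase, at 85.7. Acly, Me1, Hmgcs1 and Fasn lay between 73.0 and 82.6. Acaca was at 6.98 and Acacb at 0.02, so the cytosolic carboxylase was by far the more abundant of the pair. Srebf1 was at 57.5 and Srebf2 at 46.5 per kilobase. The order differed by line: in line 1, Insig1 was at 89.7 with WT-USP21 and 77.1 with ED-USP21, below Scd1, Fdps and Acly in both libraries.

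Levels were also compared between the background labels, lines 1 and 2 against lines 3 and 4, on counts added up per line. In edgeR 0 of 17897 genes, 0%, passed, and 162 (0.905%), none of them a member, had an unadjusted p under 0.05. DESeq2 called 7 (0.0391%), none a member. The median over sterol members was 0.04, and it depended on single lines: -0.43 without line 1, 0.41 without line 2, 0.46 without line 3 and -0.25 without line 4. With line 2 left out, line 1 against lines 3 and 4 gave 4610 called genes, 24.4%, on the assumption that the lone line varies like the others. Cyp51 at 0.91, Mvd at 0.90, Idi1 at 0.86, Pmvk at 0.70 and Acss2 at 0.65 were then higher in line 1, among 14.5% of genes called so. Insig1 at -1.11 was lower, among 9.96%, with adjusted p values of 0.0166 to 0.0476 over these 6 members in edgeR.

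Neighbouring pathways were read from lists chosen around the members, and within lines no gene of any of them was called in edgeR. In sterol transport, Abca1, the cholesterol exporter, was at 0.967, 7.92, 4.70 and 5.96 CPM in WT-USP21 lines 1 to 4 and at 0.0482, 1.82, 1.204 and 1.44 CPM in ED-USP21 lines 1 to 4. Its WT-USP21 library was the higher in 4 of 4 lines, as in 9.02% of all genes, by 2.39 (SE 0.36, adjusted p = 0.169 in edgeR), and the constructs overlapped through line 1. Npc1, which releases cholesterol from lysosomes, was at 44.9, 86.8, 80.7 and 89.0 CPM in WT-USP21 lines and at 39.2, 59.9, 65.0 and 58.9 CPM in ED-USP21 lines, a difference of 0.41 (SE 0.08, adjusted p = 0.273 in edgeR). Among 13 genes of this list the line medians were 0.16, 0.03, -0.03 and 0.04.

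Of 9 genes of SREBP processing, Insig2, the relative of Insig1, had a negative difference in each line, at -0.29 (SE 0.06, adjusted p = 0.284 in edgeR), and Lpin1, a phosphatidate phosphatase, was at -0.20 (SE 0.08). Of 17 further genes of elongation and activation, Acsl3, an acyl-CoA synthetase, was at 277, 151, 184 and 159 CPM in WT-USP21 lines 1 to 4 and at 211, 120.8, 159.6 and 129 CPM in ED-USP21 lines 1 to 4, higher with WT-USP21 in each line by 0.30 (SE 0.06, adjusted p = 0.259 in edgeR). Acsl5 was at -0.17 (SE 0.07). Line medians of that list were 0.08, 0.02, -0.06 and -0.14. Both values of lines 1 and 2 lay above both of lines 3 and 4 for 9 of 17 genes, against 17.7% of all genes. The 20 fatty acid oxidation genes had line medians of 0.23, -0.0003, -0.14 and -0.16. In line 1, 18 of 20 were positive, against 51.4% of all genes. By label, 10 of 20 were ordered, against 17.7% of all genes, so this order was not confined to sterol genes. It held for 4 of 13 transport, 4 of 11 glycerolipid, 2 of 9 SREBP processing and 1 of 9 isoprenoid genes. Of the oxidation genes, Ppargc1a, a coactivator of mitochondrial genes, had a positive difference in each line, at 1.21 (SE 0.20, adjusted p = 0.190 in edgeR). The 9 isoprenoid genes beyond the members, which draw on the same intermediates, had line medians of -0.19, -0.05, -0.06 and -0.03, and the 11 glycerolipid genes 0.04, 0.03, -0.11 and -0.05. Coq2 and Pdss1, of ubiquinone synthesis, were at -0.13 (SE 0.05) and -0.12 (SE 0.11), Agpat2 and Agpat3, acyltransferases, at -0.20 (SE 0.08) and 0.12 (SE 0.07), and Hadhb, of the mitochondrial oxidation complex, at -0.28 (SE 0.12).

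In the comparison of line 1 with lines 2 to 4, where 6.27% of all genes were called, 5 genes of these lipid lists were called in edgeR. They were Abca1 at 2.25 (adjusted p = 0.0406) and Abcg1, a sterol exporter, at -2.86 (0.0428) in transport, Dgat2, a triglyceride synthesis enzyme, at 1.43 (0.0204) and Plin2, a lipid droplet coat protein, at 0.63 (0.0278) in the glycerolipid list, and Ehhadh, a peroxisomal oxidation enzyme, at 5.35 (0.0239). The lists held 13 transport, 11 glycerolipid, 20 oxidation, 9 isoprenoid, 9 SREBP processing and 17 elongation and activation genes that were tested. The share called over these lists together was thus near that of all genes. Abca1 rests on 5 reads and Ehhadh on 2 reads in the ED-USP21 library of line 1, and Ehhadh had 48 to 82 reads in each other library. Cidec, a lipid droplet protein on the adipocyte marker list, was also called (3.22, adjusted p = 0.0172). It was at 17.8 CPM in the WT-USP21 library of line 1 and 6.67 CPM in its ED-USP21 library, and at 0.976 to 1.89 CPM in WT-USP21 and 4.61 to 5.43 CPM in ED-USP21 libraries of lines 2 to 4. The other adipocyte markers, Adipoq, Plin1 and Lep, were at 0 in both libraries of line 1.

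**Figure D5:**
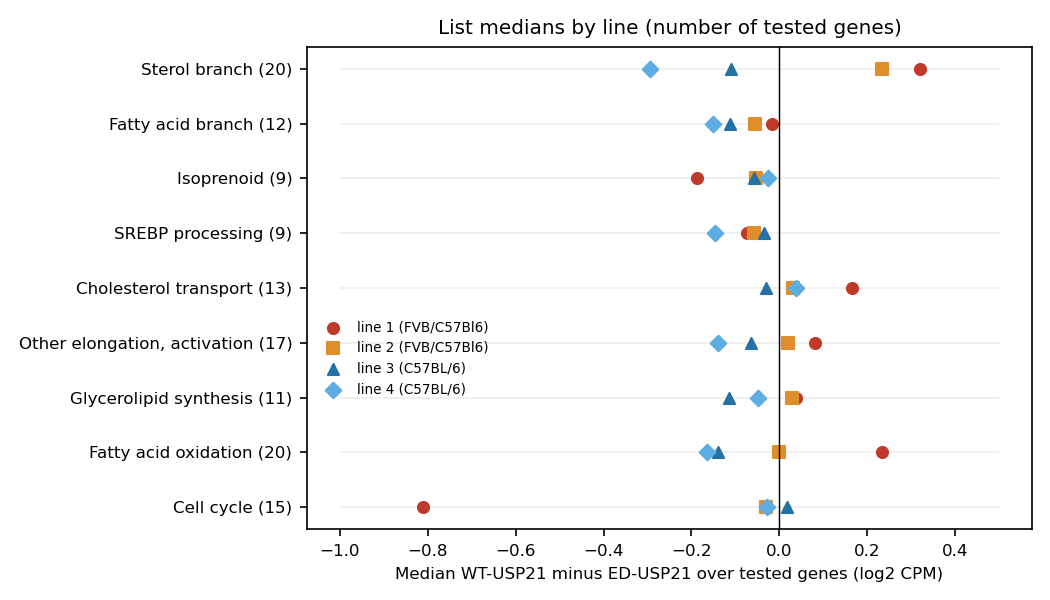
Median difference of log2 CPM, WT-USP21 minus ED-USP21, over the tested genes of each list (rows, with their number) in each line (coloured points). The sterol branch runs from 0.32 in line 1 to -0.29 in line 4, the cell cycle list stands at -0.81 in line 1, and the medians of the lists other than these and the fatty acid branch lie between -0.19 and 0.23.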

How the data were processed

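RNA sequencing values of 4 mouse PDAC cell lines with WT-USP21 or ED-USP21 were deposited by the authors as raw read counts per gene, in whole numbers. The submitters' processing notes name CASAVA, STAR, TopHat, Cufflinks and HTSeq with build mm9, without roles or versions. Whether counting used strand is not stated, so overlapping and antisense genes cannot be separated. The 3 rows that name no gene stayed out of library sizes and tests. A shared allele of the lines is not reported here. GRCm38 served only for promoter sequences and, with GENCODE M21, exon lengths.

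edgeR 4.0.16 in R 4.3.3 (quasi-likelihood test, TMM, default filter on low counts, Benjamini-Hochberg over all genes tested, calls at an adjusted p under 0.05) compared the constructs without and with the cell line as a block, the construct difference between background labels and between line 1 and the other lines, and the background labels on line sums. The SE is the absolute log2 difference over the square root of F. Levels are CPM on TMM-scaled totals, and line differences use log2 CPM with a prior count of 2. DESeq2 1.42.0, limma 3.58.1 (trend), other scalings and filters, no block and leaving out each line were alternatives. The scripts were tested on simulated data.

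The line number pairs the libraries, since a number is 1 cell line. Their deviations from the group means correlated across genes at 0.770, 0.503, 0.468 and 0.347 in lines 1 to 4. The p-values measure the spread between these lines. Where a fit leaves a single line on a side, its p-values assume that this line varies like the others. This holds for the comparison of line 1 with lines 2 to 4 and for label fits with a line left out. The members, lists and tests were chosen with earlier results of these data known. Genes given with values are the members called in any comparison and, with the smallest p within lines, up to 8 sterol, 6 fatty acid and 3 regulatory members, then up to 2 genes of each other list and those called. Of the marker lists, fibroblast genes Dcn and Lum were at 0 throughout, summed endothelial, leukocyte and hepatocyte markers were at most 7.42, 16.2 and 0.516 CPM, and summed fibroblast markers were at most 13.3 CPM, in the WT-USP21 library of line 4.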

Additional observations from a re-analysis of the deposited data

Results flagged for a closer look

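Acss2 differed between line 1 and the other lines in the direct test of that difference, at 1.61 on the log2 scale (SE 0.23, adjusted p = 0.0192 in edgeR's quasi-likelihood test). Its construct difference was positive in line 1 and negative in 3 of 3 other lines. Line 1 is a single line, and the test assumes that it varies like the others. A search for single libraries far from the rest of their construct, over 70 groups of 4 libraries (each member with each construct), found none.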

How the results depend on the processing

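Main counts of called genes were 0 over all lines, 4 within lines, 0 by background label, 1015 for line 1 by construct and 0 between labels. DESeq2 gave 60, 406, 7, 1625 and 7, with 1 fatty acid member within lines and 3 sterol members for line 1. limma gave 3 over all lines. With no filter the counts were 58 within lines and 1666 for line 1, with 4 sterol members, and at a mean of at least 5 CPM it was 0 within lines. The replicate block gave 4 over all lines; without it 0 were called within lines, and 439 with 0 fatty acid members for line 1. Leaving out 1 line or library gave 0 to 383 over all lines, 0 to 746 within lines (0 to 1 fatty acid members), 0 to 2112 for line 1 (0 to 1 fatty acid members) and 0 to 4610 between labels (0 to 5 sterol and 0 to 1 fatty acid members). The 383 and 746 were without line 1, 4610 and the 0 for line 1 without line 2, and 2112 without line 3; leaving out any of lines 2 to 4 left 0 within lines. The cause was not tested. Small values changed sign: Scap within lines (0.0097 on library totals) and Fads1 by label (0.018 with no filter). Leaving out lines in turn, values also crossed 0 within lines for Cyp51 (-0.024 to 0.30), Srebf2 (-0.029 to 0.080), Scap (-0.10 to 0.034) and Pmvk (-0.23 to 0.034), by label for Fads1 (-0.046 to 0.040), Fads2 (-0.016 to 0.22), Srebf1 (-0.065 to 0.072), Scd2 (-0.17 to 0.12) and Srebf2 (-0.021 to 0.27), and for line 1 by construct for Scd2 (-0.052 to 0.093) and Idi1 (-0.0011 to 0.30). The branch medians are small and also crossed 0. Within lines, leaving out lines gave -0.056 to 0.15 for the sterol branch (-0.056 without line 1, -0.033 without line 2). Over all lines, leaving out a line or library gave -0.15 to 0.21 for the sterol branch and -0.16 to 0.012 for the fatty acid branch. Depth does not limit the members other than Acacb.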
